A study of Mus musculus with 8 samples.

Results

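The CCAAT/enhancer-binding protein (C/EBP) family was examined here through 6 genes, Cebpa, Cebpb, Cebpd, Cebpe, Cebpg and Cebpz, out of 20018 genes that had a named probe on the array. The family was chosen on measured values of these same samples, because several of its members were higher in the knockout retina, so its differences between genotypes are given below as a description and without a test. The samples were 4 Lpcat1 WT and 4 Lpcat1 KO retinas. Both groups were mice of the C57BL/6 strain at an age of 2 weeks, and total RNA of the whole retina was hybridized to 1-colour Agilent arrays, 1 array per sample. The knockout was a global deletion of Lpcat1, the acyltransferase that makes saturated phosphatidylcholine, and the study compared the retinal transcripts of both genotypes to ask how its loss acts on photoreceptor cells. According to the methods, the line came from a C57BL6/N background that was crossed to C57BL6/J to remove the rd8 mutation of Crb1, and mice homozygous for rd8 were not used in either group.

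C/EBP proteins are basic leucine zipper (bZIP) transcription factors. The zipper joins 2 C/EBP or related proteins into a dimer, and the basic region next to it binds DNA. Cebpb and Cebpd are best known as factors switched on by cytokines such as interleukin-6 and interleukin-1 in acute-phase and glial responses, Cebpa directs the development of adipocytes, hepatocytes and myeloid cells, and Cebpe directs the late maturation of granulocytes. Cebpg lacks the activation domain of the others and acts mainly as a dimer partner, also of Atf4. Cebpz carries the family's symbol because its protein was found as a CCAAT-binding factor, but it is no bZIP protein and is related to a yeast nucleolar protein of ribosome assembly.

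RefSeq promoter windows, covering 250 bases before to 50 bases after the annotated start in the GRCm38.p6 assembly, were at hand for 3 of the 6 members: Cebpa and Cebpb, which were higher in KO, and Cebpg, which was not. They are shown to let these be compared, 5′ to 3′ along the gene, with capitals marking every match to the motifs named after them.
Cebpa (chr7:35119043-35119342, strand plus): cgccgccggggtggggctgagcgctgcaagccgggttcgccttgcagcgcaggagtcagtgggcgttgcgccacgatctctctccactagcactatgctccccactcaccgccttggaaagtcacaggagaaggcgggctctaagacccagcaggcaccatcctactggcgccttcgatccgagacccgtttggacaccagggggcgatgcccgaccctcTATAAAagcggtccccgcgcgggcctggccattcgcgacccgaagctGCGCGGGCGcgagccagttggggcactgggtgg
Cebpb (chr2:167688665-167688964, strand plus): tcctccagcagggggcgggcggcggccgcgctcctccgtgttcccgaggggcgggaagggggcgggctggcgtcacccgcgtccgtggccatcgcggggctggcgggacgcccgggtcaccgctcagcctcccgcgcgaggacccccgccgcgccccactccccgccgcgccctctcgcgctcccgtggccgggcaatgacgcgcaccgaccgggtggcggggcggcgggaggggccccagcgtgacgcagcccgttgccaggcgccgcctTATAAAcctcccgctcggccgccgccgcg
Cebpg (chr7:35056517-35056816, strand minus): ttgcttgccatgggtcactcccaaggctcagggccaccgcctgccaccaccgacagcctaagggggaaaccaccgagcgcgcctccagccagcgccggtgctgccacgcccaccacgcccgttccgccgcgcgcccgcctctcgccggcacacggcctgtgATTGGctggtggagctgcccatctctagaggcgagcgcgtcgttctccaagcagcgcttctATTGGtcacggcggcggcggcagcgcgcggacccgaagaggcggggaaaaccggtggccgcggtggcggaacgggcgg
The windows were searched on both strands for a C/EBP core (TTGCNNAA), a cyclic AMP response element (TGACGTCA), an AP-1 element (TGANTCA), a STAT element (TTCNNNGAA), a CCAAT box (CCAAT), an EGR element (GCGNGGGCG) and a TATA box (TATAAA). The Cebpa window held TATAAA with its first base at position -30 and an EGR element at 18, counting the annotated start as 1 and the base before it as -1. The Cebpb window held TATAAA at position 22, past the annotated start, and the Cebpg window held 2 CCAAT boxes on the opposite strand, read as ATTGG, at -89 and -28. No matches overlapped, and the C/EBP core, cyclic AMP, AP-1 and STAT letters were in none of these 3 windows. Over all 32851 promoter windows of this length, 13.6% held TATAAA, 5.55% the EGR element, 37.4% a CCAAT box, 10.8% the C/EBP core, 1.79% the cyclic AMP element, 7.81% the AP-1 element and 8.3% the STAT element. The G and C content was 67.3% for Cebpa, 80.7% for Cebpb and 71.7% for Cebpg, against a median of 52.7% over all windows. A match of letters is a description of the sequence and not a site of binding.

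Levels below are log2 signals after subtraction of each array's own 75th percentile, so 0 is the signal that 75% of spots did not exceed. Each member had 1 probe, and the level of one probe cannot be set against that of another. A probe was tested if the 4 WT arrays or the 4 KO arrays all had it well above background, which held for 33975 of 55681 probes and for 14940 genes. Outside the family, a gene was called changed when limma gave 1 of its probes an adjusted p below 0.05 and a fold change above 1.2, and its values below are those of its brightest probe. Of all tested genes, 2.2% were called higher in KO and 1.77% lower. All arrays lay on 1 slide, with the WT arrays in one row and the KO arrays in the other, so row and genotype cannot be told apart. Between 33117 and 36373 probes were well above background per array, without a difference between genotypes that passed a two-sided exact permutation test (p = 0.114; 0.0286 is the smallest p that 4 against 4 arrays can give). The labels do not say that the retinas came from separate animals, and p-values measure the spread between these samples, which may be in part technical. Lpcat1 itself fell from -0.41 ± 0.03 in WT to -0.87 ± 0.06 in KO (SD, n = 4 each), a difference of -0.46 (SE 0.04, limma adjusted p = 0.0036), or 0.725 times the WT signal. Whether its probe lies in the deleted part is not given in the sources used here.

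In 4 of the 6 members, Cebpa, Cebpb, Cebpd and Cebpe, each KO array was above each WT array, and in Cebpg and Cebpz the groups overlapped. Over all tested genes, 8.78% had every KO array above every WT array. Because the family was picked on this contrast, nothing is read from its own count beside that share. Cebpa and Cebpe passed the filter through the KO arrays alone.

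**Figure D1:**
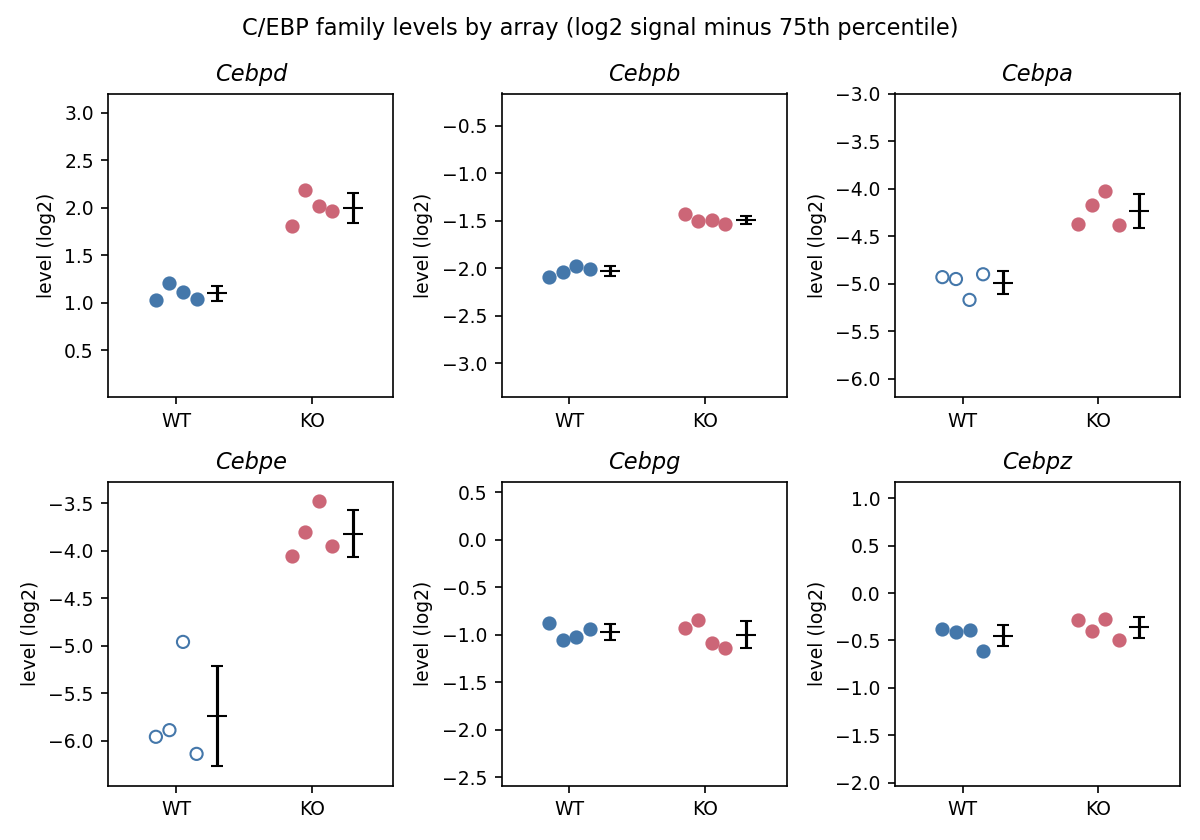
Level of each C/EBP gene on every array, as log2 signal minus the array's 75th percentile; points are arrays, filled where the probe was well above background in that genotype and open where it was not, and bars are mean ± SD (n = 4). Every panel spans 3.2 log2 units around its own centre; WT and KO arrays are apart for Cebpd, Cebpb, Cebpa and Cebpe and overlap for Cebpg and Cebpz.

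Among the cytokine-responsive members, Cebpd (NM_007679) had WT levels of 1.03, 1.21, 1.11 and 1.04 and KO levels of 1.81, 2.19, 2.02 and 1.97 in replicates 1 to 4. The lowest KO array, replicate 1, was 0.60 above the highest WT array, replicate 2, so the groups did not overlap. The mean was 1.1 ± 0.08 in WT and 2.00 ± 0.16 in KO (SD, n = 4 each), a difference of 0.90 (SE 0.08) or 1.87-fold. Cebpb (NM_009883) stood at -2.09, -2.04, -1.98 and -2.01 in WT and at -1.43, -1.50, -1.49 and -1.54 in KO. It had the tightest groups of the family, each spanning 0.11, with a gap of 0.44 between them. The means were -2.03 ± 0.05 and -1.49 ± 0.04, a difference of 0.54 (SE 0.04) or 1.45-fold. Both probes were well above background on all 8 arrays. The KO array that was highest for Cebpd, replicate 2, was not the highest for Cebpb, which was replicate 1.

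The myeloid members were dim. Cebpa (NM_007678) gave WT levels of -4.93, -4.95, -5.17 and -4.90, none well above background, and KO levels of -4.37, -4.17, -4.02 and -4.38, all well above it. The groups were 0.52 apart, with replicate 3 the lowest of the WT arrays and also the highest of the KO arrays. The measured means were -4.99 ± 0.12 and -4.23 ± 0.18 (SD, n = 4 each), a difference of 0.75 (SE 0.10) or 1.68-fold on the scanner's background-subtracted scale. Against a floored WT mean the ratio was 1.67-fold. The floor raises each WT array to the lowest level that any probe well above background had on it, and it hardly changed the ratio. Since no WT array was well above background, the WT level is uncertain and 1.67-fold is no lower limit. Under a normexp background correction the Cebpa difference shrank to 0.20.

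Cebpe (NM_207131) was measured at -5.96, -5.89, -4.96 and -6.14 in WT, again well above background on 0 of 4 arrays, and at -4.06, -3.80, -3.48 and -3.95 in KO, where all 4 arrays were. WT replicate 3 stood clear of the other WT arrays and still lay 0.90 below the lowest KO array. The processed signals behind these levels were 10 to 22.3 in WT and 39.3 to 57.3 in KO, in scanner units. The means were -5.74 ± 0.53 and -3.82 ± 0.25, a difference of 1.92 (SE 0.25). Against a WT mean floored in the same way the ratio was 2.44-fold, which is again no lower limit. Normexp gave a difference of 0.50 for this probe. For both dim genes the size therefore differed between the treatments, while KO was higher under both. Normexp was run with an offset of 50, which is large beside signals this dim and by itself shrinks log2 differences. The effect of background removal without that offset was not tested.

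The dimer partner and the CCAAT-binding factor gave overlapping groups. Cebpg (NM_009884) had levels of -0.88, -1.06, -1.02 and -0.94 in WT and -0.93, -0.84, -1.09 and -1.14 in KO. KO replicate 2 was the highest of all 8 arrays and KO replicate 4 the lowest, so the KO values enclosed the WT values. The difference was -0.02 (SE 0.08), and it was 0.02 after normexp. Cebpz (NM_001024806) had levels of -0.38, -0.41, -0.39 and -0.61 in WT and -0.28, -0.40, -0.27 and -0.49 in KO. WT replicate 4 was the lowest array in this gene, and KO replicate 4 lay within the WT range. The difference was 0.09 (SE 0.07), and the groups overlapped by 0.11. Both probes were well above background on all 8 arrays.

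**Figure D2:**
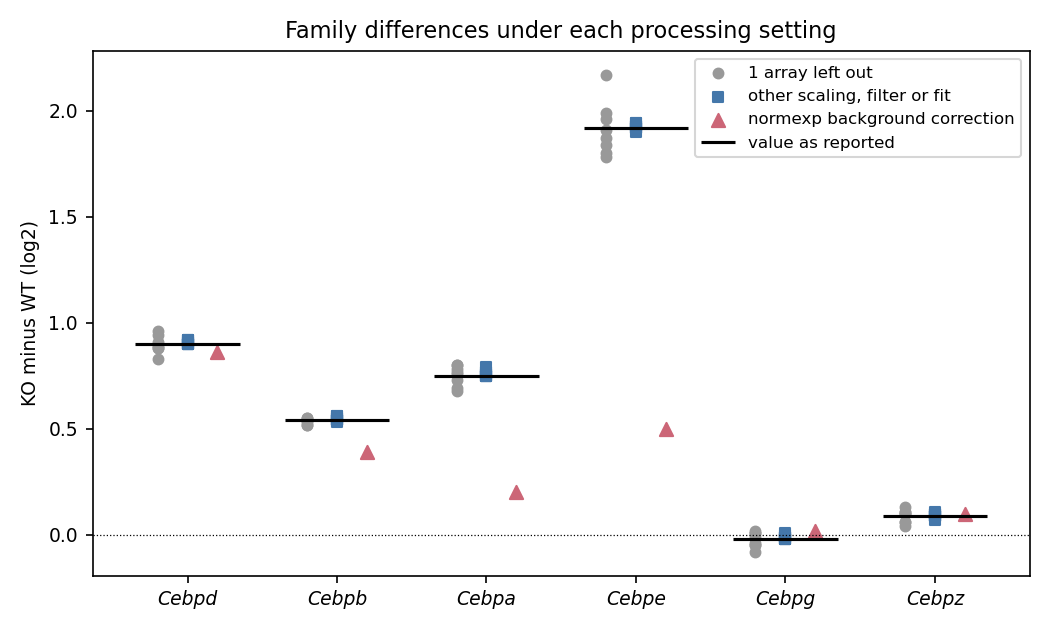
KO minus WT difference (log2) of each C/EBP gene as reported (black line), with 1 array left out (grey), under other scalings, filters or fits (blue squares) and after normexp background correction (red triangles). The triangles fall furthest from the line for Cebpe (0.50 against 1.92) and Cebpa (0.20 against 0.75), and Cebpg lies on both sides of 0.

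Whole retina mixes many cell types, so fewer cells of a type and less RNA per cell cannot be told apart. Marker genes of other cell types moved with genotype beside the family. Of 13 microglial and macrophage markers, 6 rose in KO, from Aif1 (0.45) to Tyrobp (0.65) with C1qa, C1qb, C1qc and Trem2 between them, and 0 fell. The call was lost for Aif1 without WT replicate 2 or 3 or KO replicate 3 or 4 (limma adjusted p from 0.05 to 0.0591), and for C1qa without WT replicate 3 or KO replicate 2, 3 or 4 (0.0547 to 0.0635). All 13 differences were above 0, with a median of 0.28. Their summed signal, most of it from the Itgam probe, which differed by 0.02, relative to the 75th percentile, ran from 31.6 to 39.2 in WT and from 35.3 to 41.6 in KO (two-sided exact permutation p = 0.143, n = 4 each). Of 11 Müller glia markers, 3 rose (Kcnj10, Clu and Apoe), although Kcnj10 lost its call without KO replicate 2 (limma adjusted p = 0.0508) and Clu without WT replicate 2 (0.0531). By sign, 10 of the 11 differences were above 0, with a median of 0.16. The Müller sum, most of it from the Clu and Apoe probes, was 343 to 361 in WT and 410 to 418 in KO (p = 0.0286 by the same exact test). Of 9 rod markers, 3 fell: Sag, Nr2e3 and Prph2. All 9 differences were below 0, with a median of -0.21, although Gnat1 (up to 0.12) and Pde6a (up to 0.02) lay above 0 under some other scalings. Sag (-0.36) was at -0.22 under quantile scaling, below the fold limit. Prph2 was called in its dimmer probe (-0.28, but -0.14 under quantile scaling and -0.19 under cyclic loess, neither called), while its brighter probe was not (-0.26, limma adjusted p = 0.167). The calls of Nr2e3 and Prph2 were both lost without any 1 array other than KO replicate 1 (limma adjusted p from 0.0511 to 0.0633 and from 0.0552 to 0.0835). The rod sum, most of it from the Prph2, Nrl, Gnat1 and Sag probes, went from between 1570 and 1630 in WT to between 1270 and 1420 in KO (exact p = 0.0286). Of 11 neutrophil markers, the cells in which Cebpe is best known, 3 were tested and 0 were called. Limma also gave 0 of these 3 at an unadjusted p below 0.05, and the methods' t-test called 0. S100a8, Mpo, Ltf, Ngp, Cxcr2 and Mmp8 were not well above background on any array, and the neutrophil sum, nearly all from the Csf3r probe, was 154 to 192 in WT and 153 to 180 in KO (exact p = 0.514). That sum therefore tests the Csf3r probe and does not measure neutrophil content. In the 7 retinal pigment epithelium and 3 blood markers tested, limma called 0, with 1 and 0 of them at an unadjusted p below 0.05, and the methods' t-test called 0. The part of these cell types in the C/EBP levels was not tested.

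To place the family among related bZIP factors, 17 genes were followed, of which 16 were tested. Limma called 3 higher and 0 lower in KO, with a median difference of 0.12 over the list, against -0.02 over all tested genes. Fos, the immediate early partner of Jun in AP-1, was at -0.24 ± 0.29 in WT and 1.18 ± 0.16 in KO (SD, n = 4 each), a difference of 1.42 (SE 0.14, limma adjusted p = 0.00468). Atf3, a stress-induced factor that can pair with C/EBP proteins, rose by 0.75 (SE 0.06, limma adjusted p = 0.00254), and Jun by 0.50 (SE 0.07, limma adjusted p = 0.0109). In all 3 genes each KO array was above each WT array. Ddit3 (CHOP), the stress-induced C/EBP relative that forms dimers with Cebpb, differed by 0.22 (SE 0.07, limma adjusted p = 0.113) and was not called, except when KO replicate 1 was left out (0.27, adjusted p = 0.0452). Atf4, the partner of Cebpg in the amino acid response, differed by -0.04 (SE 0.06, limma adjusted p = 0.76), and lay above 0 under quantile scaling and cyclic loess.

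The signals and regulators that act on C/EBP genes were followed in a list of 33, of which 25 were tested. Limma called 5 higher and 1 lower in KO, and the list median was 0.14. Tlr2, a receptor for microbial lipoproteins, was dim, at -4.56 ± 0.12 in WT and -3.85 ± 0.05 in KO (SD, n = 4 each). It rose by 0.70 (SE 0.07, limma adjusted p = 0.00386), or 0.26 after normexp. Osmr, the receptor subunit for oncostatin M, rose by 0.41 (SE 0.06, limma adjusted p = 0.0124). Stat3, the transcription factor that carries signals of the interleukin-6 family to genes such as Cebpd, was at 1.98 ± 0.06 in WT and 2.36 ± 0.06 in KO (SD, n = 4 each), a difference of 0.38 (SE 0.05, limma adjusted p = 0.00787). Its second probe gave 0.37 and was not called. Il1r1, the interleukin-1 receptor, rose by 0.38 (SE 0.07, limma adjusted p = 0.0242), but this call was lost when any 1 array other than KO replicate 1 was left out (adjusted p from 0.0515 to 0.062), with a median shift (adjusted p = 0.0511) and after normexp (0.20). Tnfrsf1a, a receptor for tumour necrosis factor, was the fifth gene that rose (0.32, SE 0.04, limma adjusted p = 0.0104). Its second probe gave 0.21 and was not called.

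The 1 gene of this list that fell was Trib1, whose protein directs Cebpa protein to degradation. It was at 3.12 ± 0.09 in WT and 2.69 ± 0.07 in KO (SD, n = 4 each), a difference of -0.43 (SE 0.06, limma adjusted p = 0.0104), and its second probe gave -0.43 and was also called. Socs3, a feedback inhibitor induced through Stat3, differed by 0.17 (SE 0.07, limma adjusted p = 0.171). The cytokines Il6, Lif, Il1b and Tnf, the receptor Tlr4 and the myeloid factor Spi1 were not well above background on any array.

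**Figure D3:**
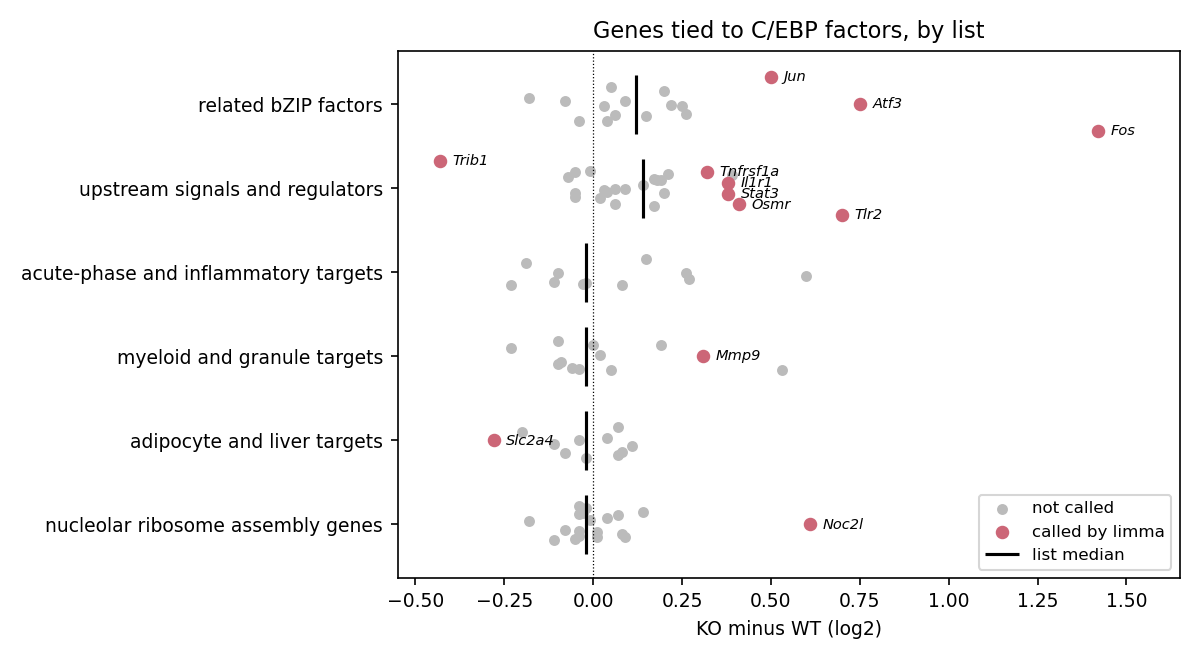
KO minus WT difference (log2) of every tested gene in 6 lists tied to the C/EBP family; red points are genes called by limma, grey points genes that were not, and black bars list medians (vertical scatter only separates points). Called genes lie in the first 2 lists for 9 of 12 genes, and the last 4 lists have medians of -0.02.

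Genes that C/EBP factors are known to activate were followed in 3 lists. Of 18 acute-phase and inflammatory targets, 11 were tested and limma called 0, with 5 at an unadjusted p below 0.05, while the methods' t-test also called 0. The list median was -0.02, equal to that of all tested genes. Lcn2, an acute-phase iron-binding protein and a well-known target of Cebpb and Cebpd, was at -0.10 ± 0.10 in WT and -0.33 ± 0.08 in KO (SD, n = 4 each), a difference of -0.23 (SE 0.06, limma adjusted p = 0.0693). C3, the central complement protein, differed by 0.08 (SE 0.05, limma adjusted p = 0.428) in its brighter probe and by 0.26 in its other, neither called. Cp, ceruloplasmin, named here after its values were seen, differed by 0.26 (limma adjusted p = 0.0374), just short of the fold limit, and was called without KO replicate 1 and under several other scalings.

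Of 21 myeloid and granule targets, which Cebpa and Cebpe are known to regulate, 12 were tested, 1 was called higher and 0 lower, and the median was -0.02. The called gene was Mmp9, a gelatinase of neutrophil granules (0.31, SE 0.07, limma adjusted p = 0.0455), and its call was lost when any 1 array other than KO replicate 1 was left out (adjusted p from 0.0738 to 0.116). Csf1r, the receptor that maintains microglia and macrophages, differed by 0.19 (SE 0.04, limma adjusted p = 0.0252), below the fold limit, with its other probes between -0.16 and 0.06. Of 18 adipocyte and liver targets of Cebpa, 11 were tested, 0 rose and 1 fell. This was Slc2a4, the insulin-responsive glucose transporter (-0.28, SE 0.04, limma adjusted p = 0.00986), whose difference of -0.22 after normexp was below the fold limit. The median of the list was -0.02.

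Beside Cebpz, 19 genes of nucleolar ribosome assembly were followed and all were tested. Limma called 1 higher and 0 lower, and the list median was -0.02. The called gene was Noc2l, the relative of a yeast protein that binds the yeast counterpart of Cebpz. It was at -2.34 ± 0.09 in WT and -1.73 ± 0.10 in KO (SD, n = 4 each), a difference of 0.61 (SE 0.06, limma adjusted p = 0.00494), or 0.35 after normexp. The other 18 genes of this list were not called.

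To describe which genes had the profile most like each member over the 8 arrays, profiles were centred on their own means and compared by the root mean square difference, for the 4 members well above background on every array. The genes nearest to Cebpd were Atf3 (0.105) and Npas4 (0.129), an activity-induced transcription factor of neurons. Atf3 and Cebpd were both highest in KO replicate 2. The genes nearest to Cebpb were C1qc (0.053), a subunit of complement C1q made by microglia, and Cck (0.061), the neuropeptide cholecystokinin, each with a KO minus WT difference of 0.57. Cebpg was nearest to Sntb2 (0.039) and Luc7l3 (0.042), and Cebpz to 1700030K09Rik (0.032) and Shroom1 (0.041), at differences between -0.02 and 0.09. A small value says only that the 8 log2 levels moved alike, and the measure takes in the difference between genotypes itself.

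**Figure D4:**
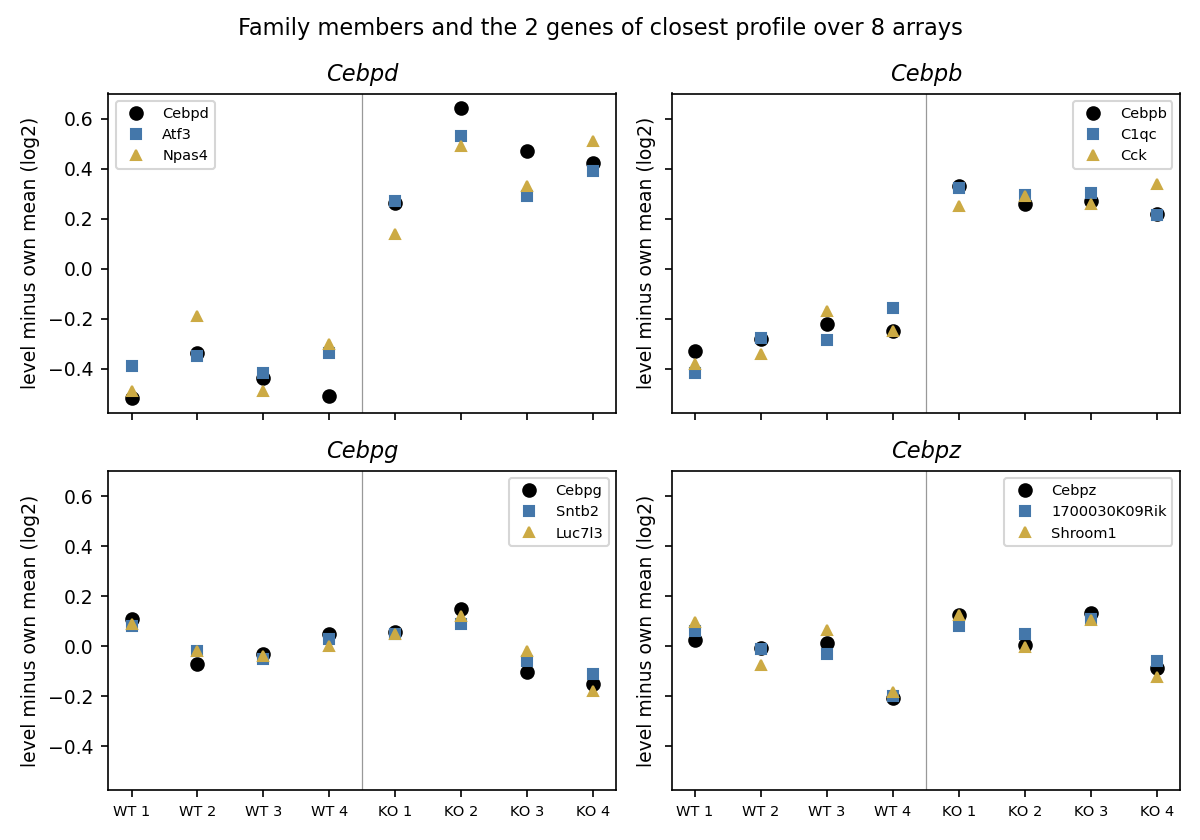
Level minus own mean (log2) on each of the 8 arrays for the 4 C/EBP genes measured above background on all arrays (black circles) and the 2 genes of closest profile (blue squares, yellow triangles). Cebpd and Atf3 are both highest in KO replicate 2, whereas Cebpg and Cebpz show no step between WT and KO arrays.

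Genes beside the members on the chromosomes were compared with them, taking the nearest tested gene on each side in the RefSeq order, with 0 to 13 other genes between. Limma called 0 of the 10 neighbours that are not members, with 3 at an unadjusted p below 0.05, and the methods' t-test called 0. Beside Cebpd, Spidr differed by 0.02 (SE 0.04) and Mzt2 by -0.19 (SE 0.04, limma adjusted p = 0.0437), below the fold limit. Beside Cebpb, Tmem189 differed by 0.10 (SE 0.05) and Ptpn1 by 0.06 (SE 0.04). Beside Cebpe, 1700123O20Rik differed by 0.06 (SE 0.06) and Slc7a8 by -0.11 (SE 0.05). Cebpg and Cebpa are each other's nearest tested gene on 1 side, with 2 other genes between them on chromosome 7, and differed by -0.02 and 0.75. Their outer neighbours Pepd and Slc7a10 differed by 0.04 (SE 0.03) and -0.03 (SE 0.17). Cebpzos and Ndufaf7, on either side of Cebpz, differed by -0.13 (SE 0.05) and -0.12 (SE 0.05).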

How the data were processed

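The deposited files were Agilent Feature Extraction 10.7.1.1 output of 8 single-colour arrays, which the authors had background-subtracted, and their value table, which held log2 values normalized by the authors. That table equalled log2 of the processed intensity minus the array's 75th percentile plus a constant of 0.123 to 0.148 per array, and its column medians ran from -3.3 to -3.2. Here the deposited processed intensities were shifted to the 75th percentile over non-control spots (59305 of 62976), log2-transformed and averaged over repeated spots, and 0 spots were saturated. The number of arrays limits the precision. Probes were named through RefSeq transcripts (26413 of 55681, 47.44%), with symbols of the GRCm38.p6 assembly, the brightest probe gave a gene's level, and a gene was called when any of its probes was. KO and WT were compared with limma 3.58.1 (R 4.3.3; lmFit, eBayes, Benjamini-Hochberg adjustment over all tested probes), after the study's thresholds, and single values per array with scipy 1.17.1. The script was tested on simulated data. Outlier spots (86 to 147 per array) were left out, and 0 deposited columns of per-sample values were unused. A result for 1 marker is not reported here.

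The members and lists were chosen with earlier results of these data known. Named genes were the members, Lpcat1, 10 fixed genes, up to 4 called genes per list by size of difference, the 2 closest profiles and the nearest tested neighbours. Tnfrsf1a, Cp and the marker genes were named after their values were seen. Alternatives covered scaling, background correction (normexp with an offset of 50 on median signals), filters, tests, thresholds and leaving out each array. Same-numbered WT and KO samples correlated at 0.037 to 0.249 in their deviations, and replicate 3 did not match its own number best.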

Additional observations from a re-analysis of the deposited data

Results flagged for a closer look

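In 12 of 282 groups of 4 arrays examined (members and genes of the lists), 1 array lay far from the other 3 by Dixon's ratio (critical value 0.829), and chance sets apart about 1 in 20 groups. Among the 12 groups of members this was 1. Cebpz stood at -0.61 in WT replicate 4, against -0.41 to -0.38 in the other WT arrays. Among the named genes, Atf4 stood at 6.57 in KO replicate 2, against 6.63 to 6.64 in the other KO arrays.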

How the results depend on the processing

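The 6 member differences kept their size within 1 SD in every setting that gave a value, except after normexp background correction, which gave 0.20 for Cebpa, 0.39 for Cebpb and 0.50 for Cebpe. With 1 array left out, they ranged from 0.68 to 0.80 for Cebpa, 0.52 to 0.55 for Cebpb, 0.83 to 0.96 for Cebpd, 1.78 to 2.17 for Cebpe, -0.08 to 0.02 for Cebpg and 0.04 to 0.13 for Cebpz. Cebpa and Cebpe have no value under a filter for signal on all arrays, and averaging a member's probes was not run, because each has 1 probe.

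The number of called probes, 993 (471 higher), became 246 without a filter, 139 at a fold of 1.5 and 3137 at an adjusted p of 0.5. With 1 array left out, the number was 1183 without KO replicate 1. It ranged from 391 (without WT replicate 2) to 552 (without WT replicate 4) when any other array was left out. Scaling on probes detected on all arrays gave 582 higher and 370 lower, and cyclic loess 615 and 346, against 471 and 522. With the replicate number as a block, 395 probes were called (216 higher), and the block left 2 of 3 calls in the bZIP list (without Jun), 5 of 6 in the upstream list (without Tnfrsf1a) and 0 of 1 in the myeloid list (adjusted p from 0.0519 to 0.064). Among markers it ended the calls of Aif1, Trem2, Kcnj10, Clu, Nr2e3 and Prph2 (adjusted p from 0.057 to 0.0618). The labels do not say that the numbers pair the samples. Same-numbered samples correlated at 0.249, 0.069, 0.037 and 0.112 in their deviations, and 3 of 4 matched their own number best, a hint from the data and not from the design.

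The upstream list had 1 call at a fold of 1.5, against 6. The acute-phase list, with 0 calls, had 1 (Cp) under quantile scaling, the detected-probe percentile, cyclic loess, normexp, the authors' table and array weights, 2 at an adjusted p of 0.5, and 0 to 1 with 1 array left out. The myeloid list, with 1 call, had 0 under quantile scaling, the median shift, no filter, the methods' t-test and a fold of 1.5, 2 at an adjusted p of 0.5, and 0 to 1 with 1 array left out. The adipocyte and liver list, with 1 call, had 0 under the detected-probe percentile, cyclic loess, normexp and a fold of 1.5. The cause of these changes was not tested. Signal near background limits Cebpa and Cebpe, and Tlr2 was also dim.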
